A study of Mus musculus with 6 samples.

Results

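The 36 genes described here encode the machinery that takes up glucose and breaks it down to pyruvate and lactate, together with the hypoxia-inducible factor (HIF) system and a few of its targets. They were chosen by gene symbol, by enzyme step and isoform, from the 17997 genes of the deposited table, and all 36 were present and passed the filter on low values. Glycolysis splits glucose into pyruvate in the cytosol, and lactate dehydrogenase converts pyruvate to lactate when it does not enter the mitochondria. HIF is a pair of transcription factor subunits whose alpha subunit is marked for destruction by oxygen-dependent prolyl hydroxylases, and which, when oxygen is scarce, raises glucose transporters, glycolytic enzymes and pyruvate dehydrogenase kinases. Haematopoietic stem cells live in a bone marrow of low oxygen and are known for relying on glycolysis while quiescent.

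RNA was measured in long-term haematopoietic stem cells (LT-HSC) sorted from the bone marrow of C57BL/6 mice aged 8 to 11 weeks, with 2 biological replicates in each of 3 genotypes and small numbers of sorted cells per library. The reference, Mx, had the genotype MxCRE, an interferon-inducible Cre recombinase. Flt3ITD carried Flt3-ITD, an internal tandem duplication in a receptor tyrosine kinase gene, and NPMc_Flt3ITD carried NPMc+, a nucleophosmin mutant that moves to the cytoplasm, together with Flt3-ITD. The labels name MxCRE for the reference only, and the sources used here state neither the sort markers nor any pooling of animals. A genotype with NPMc+ but without Flt3-ITD was not analysed here.

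The deposited values recovered to between 15618802 and 37038893 reads per library. In the normalized counts (CPM), 1 read was worth between 0.0289 and 0.0657 units. These CPM were scaled to an effective library size and not to the total reads of each library. The effective size over the total ranged from 0.934 in NPMc_Flt3ITD replicate 2 to 1.10 in Mx replicate 2. All 13 markers listed for LT-HSC were above 0 in every library, but their summed level was 2164 and 2114 CPM in Mx cells, 1173 and 1222 CPM in Flt3ITD cells and 1618 and 1265 CPM in NPMc_Flt3ITD cells. Kit, the largest of them in every library, had 689 and 716, 487 and 563, and 798 and 567 CPM in the same order. Kit, Slamf1, Ly6a and Gfi1b were not below both Mx libraries in every mutant library, whereas the other markers were. Fewer cells of a type and less RNA per cell cannot be told apart in bulk samples. The labels give no sex, and the X-linked Xist varied from 37.2 to 1038 CPM between libraries. The 6 libraries also differed in a summed list of 22 immediate early and stress genes, which was higher in replicate 1 than in replicate 2 of every group, from 7991 to 19211 CPM.

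The promoters below are shown because their genes carry the main differences, and because Ldha and Ldhb encode the alternative subunits of 1 enzyme. Each is the reference sequence from RefSeq GRCm38.p6, from 250 bases before to 50 bases after the transcription start, 5′ to 3′ on the gene's own strand. Capitals mark the core letters of the HIF response element, ACGTG or GCGTG, read on either strand, so that CACGT and CACGC are marked too and CACGTG counts for both strands. The windows are chr6:142507908-142508207 on the minus strand for Ldhb, chr7:46845554-46845853 on the plus strand for Ldha, chr11:78322823-78323122 on the plus strand for Aldoc and chr3:104638414-104638713 on the plus strand for Slc16a1. For Ldha and Aldoc, with 2 windows each, the most upstream is printed.
Ldhb: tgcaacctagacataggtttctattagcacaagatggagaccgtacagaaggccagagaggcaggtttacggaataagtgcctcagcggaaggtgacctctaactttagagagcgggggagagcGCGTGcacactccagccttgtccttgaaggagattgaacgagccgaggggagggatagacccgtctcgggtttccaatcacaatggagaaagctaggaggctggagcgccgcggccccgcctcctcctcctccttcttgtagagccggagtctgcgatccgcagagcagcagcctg
Ldha: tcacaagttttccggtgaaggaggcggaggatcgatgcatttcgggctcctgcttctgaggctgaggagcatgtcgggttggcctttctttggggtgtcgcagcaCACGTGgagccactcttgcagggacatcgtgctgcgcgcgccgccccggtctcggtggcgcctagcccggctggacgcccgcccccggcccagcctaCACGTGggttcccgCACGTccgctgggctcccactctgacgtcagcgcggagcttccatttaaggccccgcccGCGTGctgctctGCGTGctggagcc
Aldoc: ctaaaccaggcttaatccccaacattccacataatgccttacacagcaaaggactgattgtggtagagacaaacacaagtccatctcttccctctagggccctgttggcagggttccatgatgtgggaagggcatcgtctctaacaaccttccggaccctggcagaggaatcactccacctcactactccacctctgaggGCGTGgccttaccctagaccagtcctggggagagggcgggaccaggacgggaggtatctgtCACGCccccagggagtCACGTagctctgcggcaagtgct
Slc16a1: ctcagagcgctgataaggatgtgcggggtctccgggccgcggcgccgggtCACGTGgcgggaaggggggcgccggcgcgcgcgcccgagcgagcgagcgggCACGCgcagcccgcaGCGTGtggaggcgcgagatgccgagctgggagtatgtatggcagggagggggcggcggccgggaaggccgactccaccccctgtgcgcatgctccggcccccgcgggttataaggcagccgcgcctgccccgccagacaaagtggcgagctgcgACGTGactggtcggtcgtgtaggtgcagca

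The Ldha window held 5 matches to ACGTG and 2 to GCGTG, whereas the Ldhb window held 0 and 1. Aldoc had 1 and 2 matches, and Slc16a1 had 3 and 2. RefSeq windows were matched for 33 of the 36 genes, the others being Slc2a3, Epas1 and Bnip3l. Of the 46 windows of these 33 genes 54.3% held ACGTG and 60.9% held GCGTG. The shares were 25.6% and 49.8% of the 12007 windows matched for 9429 of the 12657 genes tested. Over all 32851 promoter windows listed by RefSeq the shares were 19.6% and 32.4%. These matches are a description of letters and not of bound sites.

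Against the Mx reference, Flt3ITD LT-HSC had less RNA of the glucose transporter Slc2a3 and of the lactate dehydrogenase subunit Ldhb, and more of the lactate transporter Slc16a1. These 3 of 36 genes passed limma at an adjusted p under 0.05, 1 higher and 2 lower, where 4.55% of the 12657 genes tested passed, 2.12% higher and 2.43% lower. The libraries of the groups did not overlap for 8 genes that were higher and 11 that were lower, against 26.6% and 27.3% of all genes. The median log2 fold change over the 36 genes was -0.05, beside 0.01 over all genes. Of the 36, 26 lay within 0.5 of 0, as did 8000 of the 12657 genes tested. With the replicate number as a block, 2 genes passed as higher and 6 as lower, where 18.5% of all genes passed: Slc16a1, Tpi1, Slc2a1, Slc2a3, Hk2, Ldhb, Vegfa and Ddit4.

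In NPMc_Flt3ITD against Mx, Ldhb fell and the other 35 genes did not pass limma, where 1.17% of all genes passed and 0.656% passed as lower and 0.514% as higher. Libraries did not overlap for 9 genes that were higher and 11 that were lower, against 20.4% and 22.1% of all genes. The median was -0.04 on the log2 scale, beside 0.01 over all genes. Of the 36 genes, 28 lay within 0.5 of 0, as did 9656 of the 12657 genes tested. With the replicate block, Aldoc passed as higher and Slc2a3 and Ldhb as lower, where 5.44% of all genes passed.

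Between the mutant genotypes, NPMc_Flt3ITD had more RNA of the aldolase Aldoc and less of Slc16a1 than Flt3ITD. These 2 of 36 genes passed limma, where 1.18% of all genes passed, 0.277% as higher and 0.901% as lower. For 12 genes the NPMc_Flt3ITD libraries lay above both Flt3ITD libraries and for 9 below, against 24.4% and 23.8% of all genes. The median log2 difference was 0.07, beside 0.03 over all genes. With the replicate block 4 genes passed as higher (Hk2, Aldoc, Egln3 and Ddit4) and 3 as lower (Hk1, Ldha and Slc16a1), where 12% of all genes passed. The comparisons of both mutants with Mx share the Mx libraries and are not independent of each other.

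**Figure D1:**
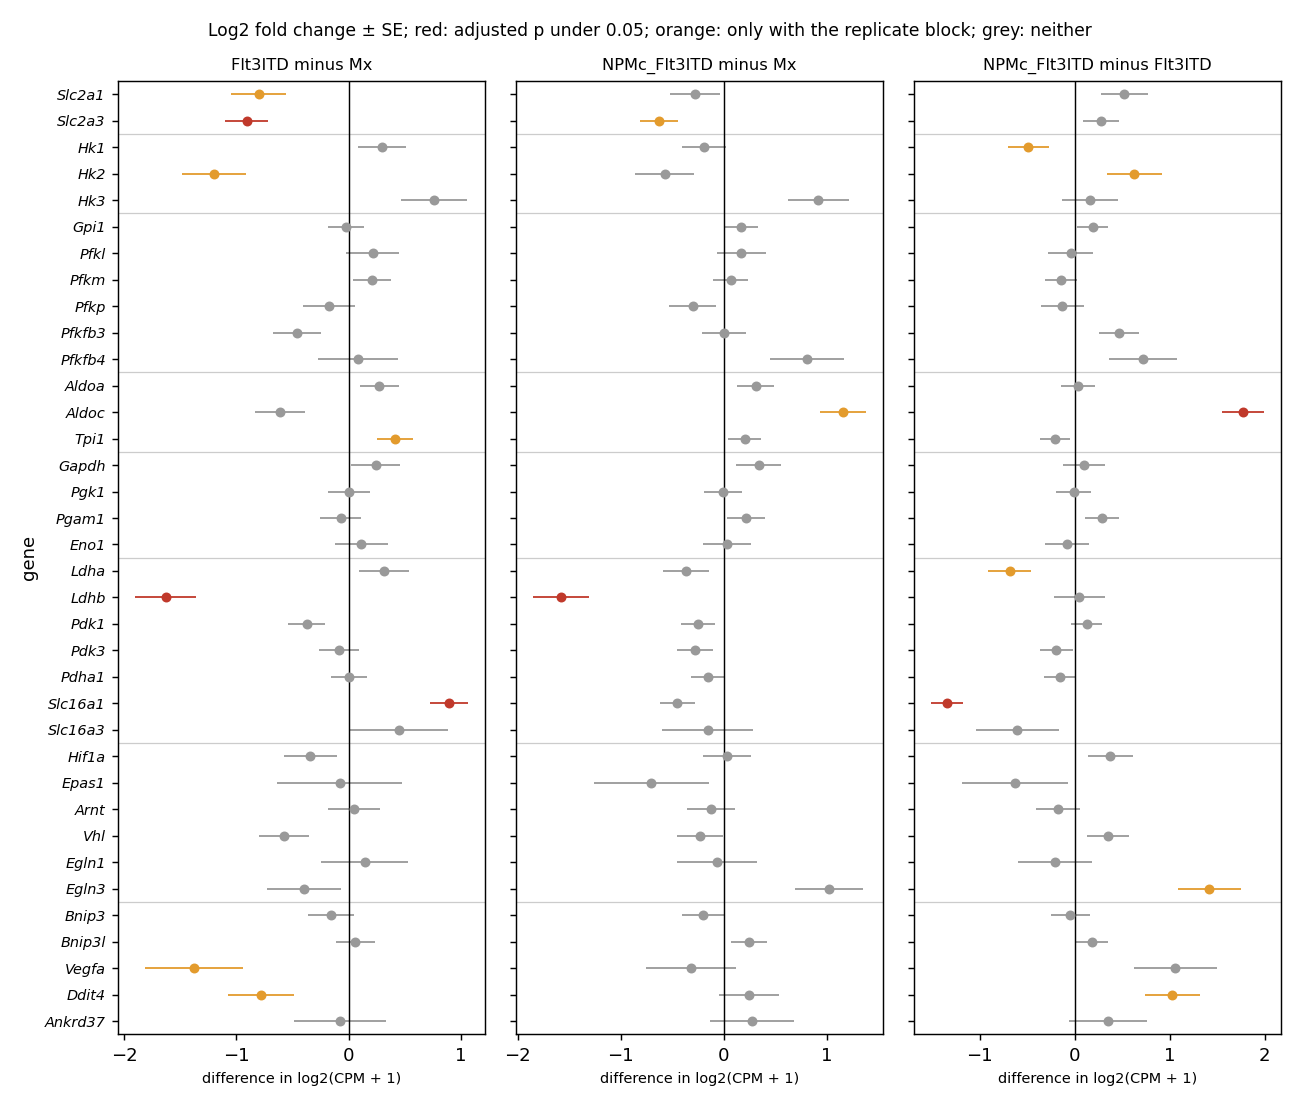
Log2 fold change of each of the 36 genes in the 3 comparisons, on the log2(CPM + 1) scale, with the limma standard error as bars. Points are red for an adjusted p under 0.05, orange where only the fit with the replicate block passed, and grey for neither. Red points are Slc2a3, Ldhb and Slc16a1 in Flt3ITD against Mx, Ldhb in NPMc_Flt3ITD against Mx, and Aldoc and Slc16a1 in NPMc_Flt3ITD against Flt3ITD.

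Glucose enters the cell through transporters of the Slc2a family. Slc2a3, a high-affinity transporter, had 151 and 140 CPM in Mx cells, 71.6 and 83.1 CPM in Flt3ITD cells and 107 and 82.1 CPM in NPMc_Flt3ITD cells. Both Mx libraries were above all 4 mutant libraries, and the mutant groups overlapped. From 146 ± 8.00 CPM (SD, n = 2) in Mx it fell to 77.3 ± 8.14 CPM in Flt3ITD, a log2 fold change of -0.91 (SE 0.19, limma adjusted p = 0.0374). In NPMc_Flt3ITD, at 94.5 ± 17.5 CPM, the log2 fold change was -0.63 and passed with the replicate block but not without it (limma adjusted p = 0.19, with the block 0.0449). The call in Flt3ITD was lost when any of its 4 libraries was left out, with adjusted p = 0.179 without Mx replicate 1, 0.146 without Mx replicate 2, 0.153 without Flt3ITD replicate 1 and 0.0684 without Flt3ITD replicate 2, and edgeR on the recovered reads gave 0.0536.

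The other transporter, Slc2a1, which carries basal glucose uptake in blood cells, had 63.1 and 39.9 CPM in Mx cells, 28.9 and 27.9 CPM in Flt3ITD cells and 41.3 and 41.2 CPM in NPMc_Flt3ITD cells. The Mx libraries differed most from each other, and Flt3ITD lay below every other library. Its log2 fold change in Flt3ITD against Mx was -0.80 (SE 0.25), with a limma adjusted p of 0.0988 that became 0.0245 with the replicate block. Per kilobase of transcript, Slc2a1 made up between 25.7% and 37.9% of the summed level of both transporters in the 6 libraries, and the range in Mx alone, 25.7% to 33.6%, overlapped that of both mutants.

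Hexokinases trap glucose as glucose 6-phosphate. Hk2, the inducible form bound to mitochondria, had 60.9 and 74.7 CPM in Mx cells, 22.1 and 37.5 CPM in Flt3ITD cells and 38 and 53.4 CPM in NPMc_Flt3ITD cells. The Flt3ITD libraries were the lowest and the Mx libraries the highest, with no overlap between any of the groups. The log2 fold change in Flt3ITD against Mx was -1.20 (SE 0.29), just outside the threshold at a limma adjusted p of 0.0538 and 0.00223 with the replicate block. Between the mutants the log2 difference was 0.63 (limma adjusted p = 0.288, with the block 0.0499).

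Hk1, the constitutive form, was the most abundant hexokinase per kilobase of transcript in every library, and had 251 and 209 CPM in Mx cells, 302 and 264 CPM in Flt3ITD cells and 243 and 165 CPM in NPMc_Flt3ITD cells. Its libraries in Flt3ITD were above those of both other groups, and the difference between the mutants, -0.49 on the log2 scale, passed with the replicate block but not without it (limma adjusted p = 0.265, with the block 0.0338). Hk3, a form of myeloid cells, had 54.1 and 30.7 CPM in Mx cells, 77.5 and 62.8 CPM in Flt3ITD cells and 65.0 and 93.8 CPM in NPMc_Flt3ITD cells. All 4 mutant libraries were above both Mx libraries, yet neither comparison passed limma (log2 fold changes of 0.76 and 0.92, adjusted p = 0.164 and 0.225). As a share of the summed hexokinase level per kilobase, Hk2 took 12.8% and 18.8% in Mx cells, 4.07% and 7.72% in Flt3ITD cells and 8.20% and 12.5% in NPMc_Flt3ITD cells, while Hk3 took 19.4% and 13.3%, 24.4% and 22.2%, and 24.0% and 37.6%. The markers of neutrophils, a cell type that expresses Hk3, all 10 of them above 0 in every library, summed to 394 and 328 CPM in Mx cells, 431 and 1941 CPM in Flt3ITD cells and 1188 and 1349 CPM in NPMc_Flt3ITD cells. These markers did not move together. Mpo had 54.7 and 120 CPM in Mx cells, 254 and 848 CPM in Flt3ITD cells and 631 and 432 CPM in NPMc_Flt3ITD cells. S100a8 had 68.2 and 28.1, 3.74 and 269, and 31.6 and 210 CPM in the same order. In Flt3ITD replicate 1, S100a8, S100a9, Ngp, Camp, Ltf, Retnlg and Prtn3 were below both Mx libraries. The part of the neutrophil markers in the Hk3 values was not tested.

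The next steps rearrange and phosphorylate the sugar. Glucose phosphate isomerase Gpi1 ranged from 407 to 490 CPM over the 6 libraries. The phosphofructokinases, which catalyse the committed step, ranged from 123 to 195 CPM for Pfkl, 66.2 to 78.8 CPM for Pfkm and 42.8 to 68.2 CPM for Pfkp. None of these 4 genes reached a log2 fold change of 0.5 in any of the 3 comparisons. Per kilobase, Pfkl made up 49.1% to 58.0% of the phosphofructokinase level in all libraries.

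Pfkfb3 and Pfkfb4 make fructose 2,6-bisphosphate, the activator of phosphofructokinase, and are HIF targets in other tissues. Pfkfb3 had 38.8 and 39.7 CPM in Mx cells, 26.7 and 29.97 CPM in Flt3ITD cells and 35.8 and 43.3 CPM in NPMc_Flt3ITD cells. Flt3ITD lay below both other groups, with a log2 fold change of -0.46 against Mx that did not pass limma (adjusted p = 0.23). Pfkfb4 had 6.41 and 9.23 CPM in Mx cells, 10.04 and 6.72 CPM in Flt3ITD cells and 16.8 and 12 CPM in NPMc_Flt3ITD cells. Its NPMc_Flt3ITD libraries were above the other 4, with a log2 fold change of 0.81 against Mx that did not pass limma (adjusted p = 0.414).

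Aldolases split fructose 1,6-bisphosphate. Aldoc, the isoform best known from brain, had 22.6 and 26.6 CPM in Mx cells, 15.3 and 16.2 CPM in Flt3ITD cells and 55.8 and 56.3 CPM in NPMc_Flt3ITD cells. The 3 groups did not overlap, with Flt3ITD the lowest and NPMc_Flt3ITD the highest. From 15.7 ± 0.609 CPM (SD, n = 2) in Flt3ITD it rose to 56.1 ± 0.350 CPM in NPMc_Flt3ITD, a log2 fold change of 1.77 (SE 0.22, limma adjusted p = 0.00887). Without Flt3ITD replicate 1 the adjusted p was 0.0734, without NPMc_Flt3ITD replicate 1 it was 0.0743 and without NPMc_Flt3ITD replicate 2 it was 0.0882. Against Mx, NPMc_Flt3ITD differed by 1.16 on the log2 scale (SE 0.22, limma adjusted p = 0.0504, with the replicate block 0.0105) and Flt3ITD by -0.61 (SE 0.22, limma adjusted p = 0.142).

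Aldoa, the general isoform, was the main aldolase, at 465 and 399 CPM in Mx cells, 537 and 506 CPM in Flt3ITD cells and 563 and 506 CPM in NPMc_Flt3ITD cells. Both mutants were above Mx, by 0.27 and 0.31 on the log2 scale, without passing limma (adjusted p = 0.377 and 0.559). Aldoc was a small share of the aldolase level per kilobase in every library, 2.57% and 3.49% in Mx cells, 1.52% and 1.70% in Flt3ITD cells and 5.10% and 5.69% in NPMc_Flt3ITD cells. Triose phosphate isomerase Tpi1, which interconverts the products of the aldolase step, had 342 and 348 CPM in Mx cells, 474 and 449 CPM in Flt3ITD cells and 389 and 408 CPM in NPMc_Flt3ITD cells. Flt3ITD was above both other groups, and its log2 fold change of 0.42 against Mx passed with the replicate block but not without it (limma adjusted p = 0.161, with the block 0.0294).

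**Figure D2:**
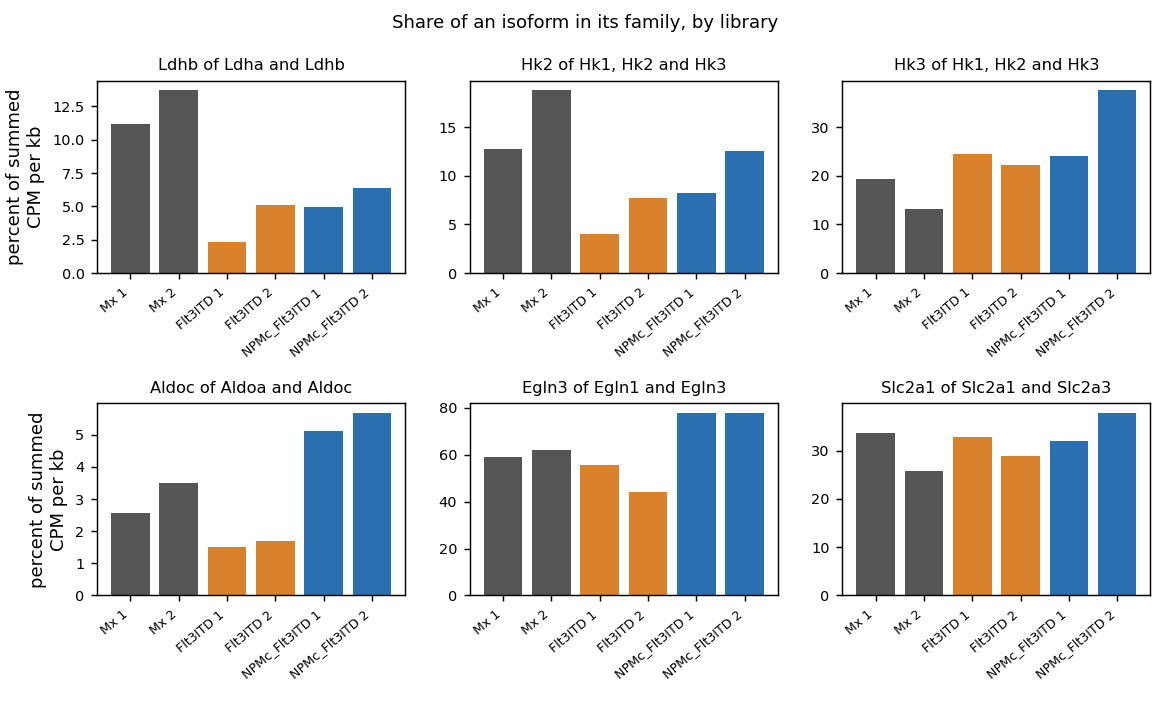
Share of each isoform in the summed level of its family, in percent of CPM per kilobase, for each of the 6 libraries. Aldoc is highest in NPMc_Flt3ITD (5.10% and 5.69%), and Ldhb is highest in Mx (11.1% and 13.7%).

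The steps from Gapdh to enolase, part of the payoff stage, differed little between genotypes. Pyruvate kinase, the last step of that stage, is described further below. Gapdh ranged from 309 to 514 CPM, phosphoglycerate kinase Pgk1 from 243 to 312 CPM and phosphoglycerate mutase Pgam1 from 219 to 320 CPM. Every one of the 4 genes from Gapdh to enolase had a log2 fold change between -0.08 and 0.34 in the 3 comparisons. Gapdh was lower in replicate 1 than in replicate 2 of each group. Enolase Eno1, at 21.6 to 24.5 CPM, was far below its neighbours in the pathway, at 10.8 CPM per kilobase in Mx where Pgam1 had 142. That value is uncertain, because near-identical copies can take or void its reads, and the sources used here do not say how reads matching several places were counted.

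The 16 enzymes from hexokinase to lactate dehydrogenase summed to 3791 and 3688 CPM in Mx cells, 4424 and 4012 CPM in Flt3ITD cells and 3901 and 3808 CPM in NPMc_Flt3ITD cells. Flt3ITD held the 2 highest libraries of this sum, which leaves out pyruvate kinase, the step before lactate dehydrogenase, because its genes are not among the 36. Pkm, the pyruvate kinase gene of most tissues, had 719 and 658 CPM in Mx cells, 499 and 453 CPM in Flt3ITD cells and 607 and 683 CPM in NPMc_Flt3ITD cells. Flt3ITD was the lowest group for Pkm, by -0.53 on the log2 scale against Mx (limma adjusted p = 0.123, with the replicate block 0.0151), and NPMc_Flt3ITD was 0.44 above Flt3ITD (limma adjusted p = 0.236, with the block 0.0462). With Pkm the sums were 4511 and 4345 CPM in Mx cells, 4923 and 4465 CPM in Flt3ITD cells and 4508 and 4491 CPM in NPMc_Flt3ITD cells, and the groups overlapped. Per kilobase, the most abundant genes in Mx were Ldha with 496 CPM per kilobase, Aldoa with 286, Gapdh with 255 and Tpi1 with 215, and the least abundant were Slc16a3 with 1.27 and Epas1 with 0.34. Ldha, with the largest share of the enzyme sum, thus weighs most in it.

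**Figure D3:**
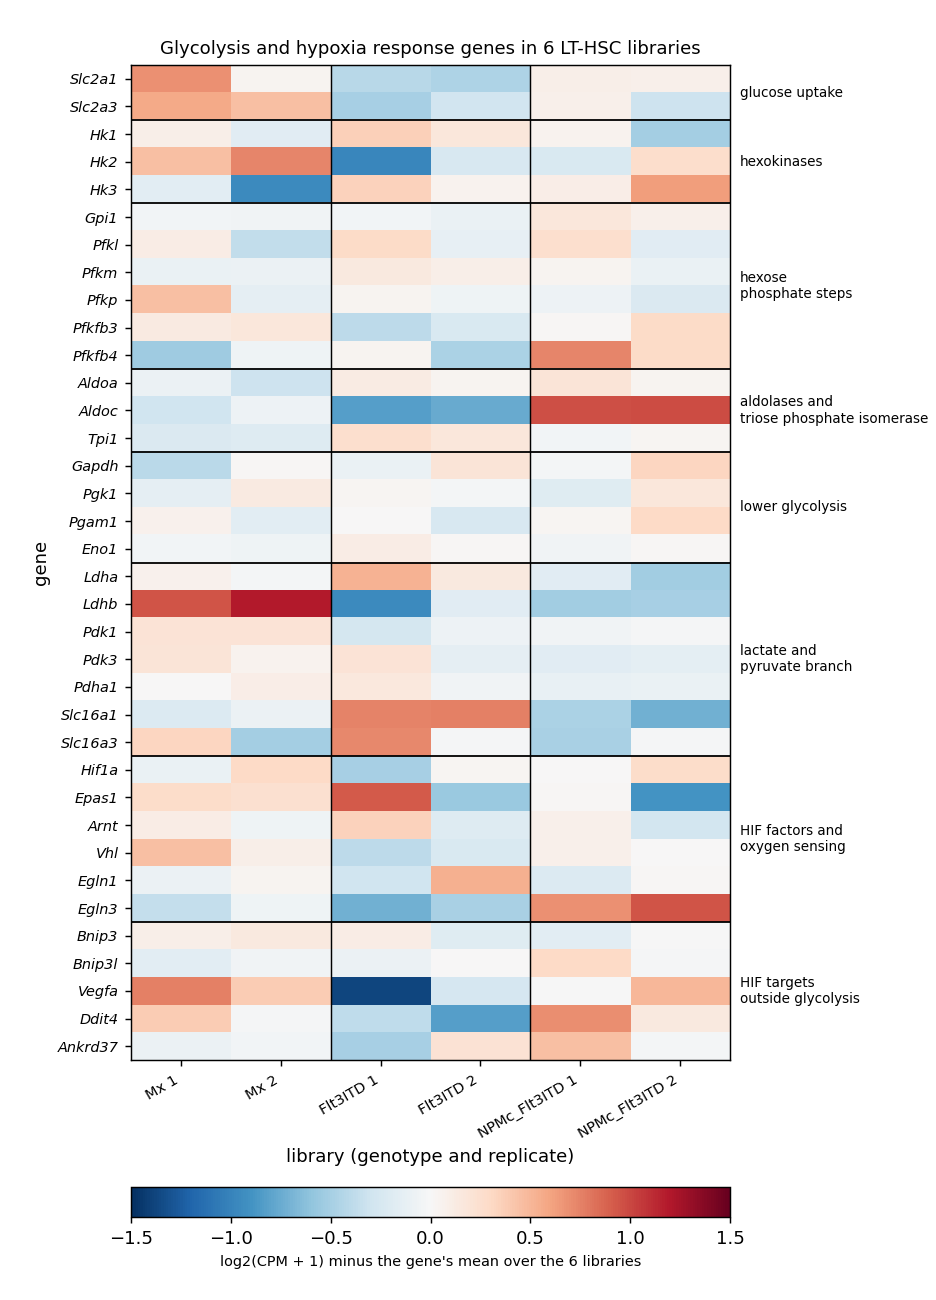
Deviation of log2(CPM + 1) from each gene's mean over the 6 libraries for the 36 genes, ordered by role, with 1 column per library. Ldhb and Slc2a3 are above their mean in both Mx libraries, Slc16a1 in both Flt3ITD libraries, and Aldoc and Egln3 in both NPMc_Flt3ITD libraries.

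At the end of the pathway, lactate dehydrogenase is a tetramer of A and B subunits, of which A is known for favouring lactate formation and B for favouring its use. Ldhb had 83.6 and 99.5 CPM in Mx cells, 21.7 and 38.1 CPM in Flt3ITD cells and 29.5 and 30.1 CPM in NPMc_Flt3ITD cells. All 4 mutant libraries lay below both Mx libraries, and the mutant groups overlapped. From 91.5 ± 11.3 CPM (SD, n = 2) in Mx it fell to 29.9 ± 11.6 CPM in Flt3ITD, a log2 fold change of -1.63 (SE 0.27, limma adjusted p = 0.0216), and to 29.8 ± 0.413 CPM in NPMc_Flt3ITD, a log2 fold change of -1.58 (SE 0.27, limma adjusted p = 0.03). The difference between the mutants was 0.05 on the log2 scale with the same SE of 0.27 (limma adjusted p = 0.945).

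In Flt3ITD the Ldhb call was lost without Mx replicate 1 (adjusted p = 0.0908), Mx replicate 2 (0.117) or Flt3ITD replicate 1 (0.0841). In NPMc_Flt3ITD it was lost without Mx replicate 1 (adjusted p = 0.137), Mx replicate 2 (0.212), NPMc_Flt3ITD replicate 1 (0.179) or NPMc_Flt3ITD replicate 2 (0.178), and with edgeR on the recovered reads (0.0542). The log2 fold change stayed between -2.02 and -1.24 in Flt3ITD and between -1.71 and -1.46 in NPMc_Flt3ITD under all 16 alternatives. The summed LT-HSC markers, given above, were also lower in all 4 mutant libraries than in Mx, and their part in the Ldhb and Slc2a3 values was not tested.

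Ldha, the abundant partner, had 927 and 872 CPM in Mx cells, 1275 and 981 CPM in Flt3ITD cells and 786 and 616 CPM in NPMc_Flt3ITD cells. Flt3ITD was above Mx and NPMc_Flt3ITD below it, with no overlap between groups. The log2 fold changes against Mx were 0.31 in Flt3ITD and -0.37 in NPMc_Flt3ITD (SE 0.22, limma adjusted p = 0.43 and 0.594). Between the mutants the difference was -0.68 (SE 0.22, limma adjusted p = 0.151, with the replicate block 0.0081). As a share of both subunits per kilobase, Ldhb was 11.1% and 13.7% in Mx cells, 2.32% and 5.13% in Flt3ITD cells and 4.97% and 6.38% in NPMc_Flt3ITD cells, so that every mutant library was below both Mx libraries.

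Lactate and pyruvate cross the plasma membrane through monocarboxylate transporters. Slc16a1, the widespread one, had 84.1 and 91.2 CPM in Mx cells, 163 and 165 CPM in Flt3ITD cells and 69.7 and 58.4 CPM in NPMc_Flt3ITD cells. Flt3ITD was the highest and NPMc_Flt3ITD the lowest, and no libraries overlapped between groups. From 87.7 ± 5.03 CPM (SD, n = 2) in Mx it rose to 164 ± 1.19 CPM in Flt3ITD, a log2 fold change of 0.89 (SE 0.17, limma adjusted p = 0.0296). From there it fell to 64.1 ± 7.99 CPM in NPMc_Flt3ITD, a log2 fold change of -1.34 (SE 0.17, limma adjusted p = 0.00905), while NPMc_Flt3ITD against Mx, at -0.45, did not pass limma (adjusted p = 0.304).

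The rise of Slc16a1 in Flt3ITD was no longer called without Mx replicate 1 (adjusted p = 0.163), Mx replicate 2 (0.123), Flt3ITD replicate 1 (0.121) or Flt3ITD replicate 2 (0.0808), or with scaling to library totals (0.0518). The difference between the mutants was no longer called without Flt3ITD replicate 1 (0.0767) or NPMc_Flt3ITD replicate 2 (0.0851). Scaling to library totals without Rn45s also lost the rise in Flt3ITD (limma adjusted p = 0.0541). Slc16a1 is also made by erythroid cells. The 12 erythroid markers in the table summed to 1358 and 1305 CPM in Mx cells, 3949 and 3738 CPM in Flt3ITD cells and 1268 and 791 CPM in NPMc_Flt3ITD cells, with the late markers Alas2 and Hbb-b1 at 0.112 to 3.49 CPM and Slc4a1 at 0 in 4 libraries. Summed cell cycle genes, 20 of 20 above 0 in every library, were 2874 and 2823 CPM in Mx cells, 4851 and 4064 CPM in Flt3ITD cells and 2740 and 2712 CPM in NPMc_Flt3ITD cells. The part of either list in the Slc16a1 values was not tested.

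**Figure D4:**
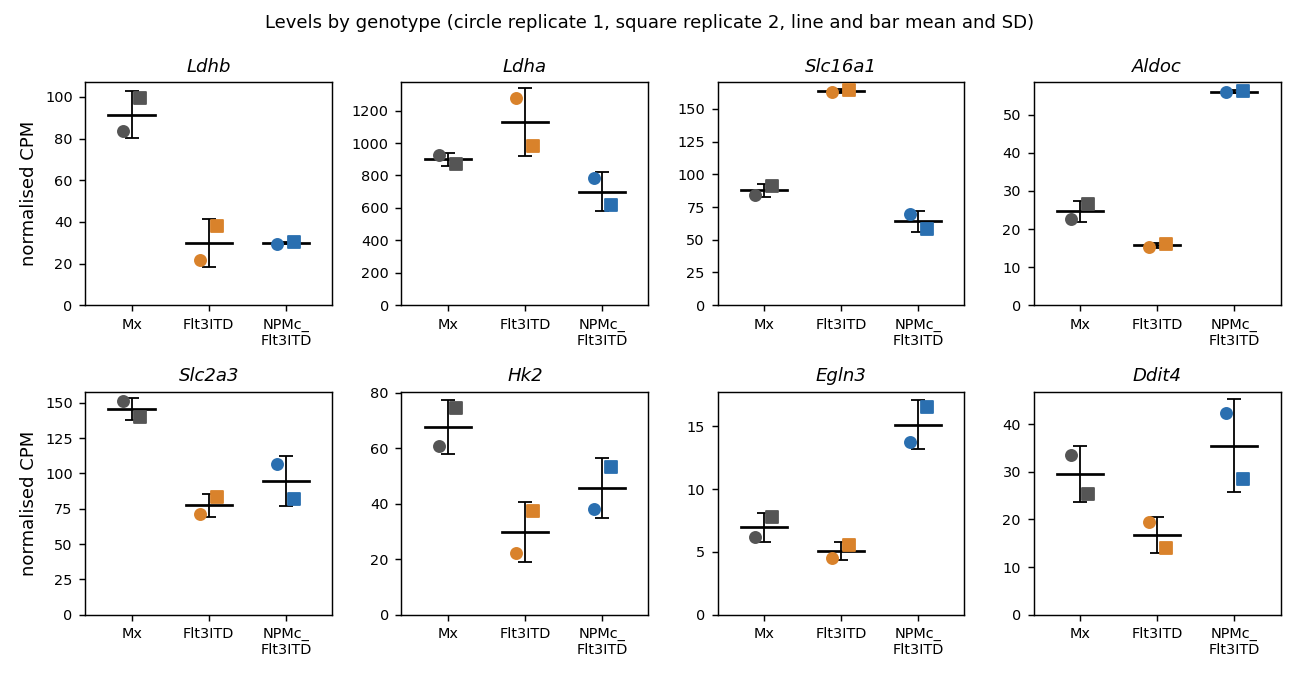
CPM of selected genes in each library, with points for libraries and a line with a bar for the group mean and SD (n = 2). Ldhb is at 83.6 to 99.5 CPM in Mx and at 21.7 to 38.1 CPM in the mutants, Aldoc is at 55.8 to 56.3 CPM in NPMc_Flt3ITD, and Slc16a1 is at 163 to 165 CPM in Flt3ITD.

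Slc16a3, a lactate exporter and HIF target, was low in all libraries, at 3.68 to 9.98 CPM, and took 3.36% to 8.88% of the level of both transporters per kilobase. The gate between pyruvate and the mitochondria is pyruvate dehydrogenase, whose E1 subunit Pdha1 ranged from 118 to 142 CPM, and the kinases that switch it off. Pdk1, a HIF target, had 97.7 and 97.8 CPM in Mx cells, 70.4 and 80.4 CPM in Flt3ITD cells and 81.2 and 83.3 CPM in NPMc_Flt3ITD cells. All 4 mutant libraries were below Mx, but the log2 fold changes of -0.37 and -0.25 did not pass limma (adjusted p = 0.214 and 0.641). Pdk3 ranged from 96.7 to 125 CPM and was the more abundant of both kinases per kilobase, with 73.8% to 81.3% of their level. In NPMc_Flt3ITD against Mx all 7 genes of this branch had log2 fold changes below 0 and the libraries of 6 lay entirely below Mx, against 22.1% of all genes, and of these genes Ldhb passed limma. In Flt3ITD against Mx 4 of the 7 were above 0 and 3 below. Their libraries were entirely higher for 2 and entirely lower for 2, against 26.6% and 27.3% of all genes.

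Of the HIF subunits, Hif1a had 73.4 and 97.1 CPM in Mx cells, 55.3 and 80.1 CPM in Flt3ITD cells and 78.8 and 95.1 CPM in NPMc_Flt3ITD cells. The groups overlapped, and replicate 1 was below replicate 2 in each. The log2 fold changes against Mx were -0.34 and 0.04 (limma adjusted p = 0.412 and 0.976). Epas1, the HIF-2 alpha subunit, was low at 0.289 to 3.55 CPM, and 10 reads were behind its lowest value. Arnt, the beta subunit, ranged from 49.9 to 76.8 CPM with overlapping groups.

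Oxygen is sensed by the prolyl hydroxylases of the Egln family, and hydroxylated alpha subunits are recognised by Vhl. Egln3, itself induced by HIF, had 6.15 and 7.77 CPM in Mx cells, 4.53 and 5.54 CPM in Flt3ITD cells and 13.7 and 16.5 CPM in NPMc_Flt3ITD cells. The groups did not overlap, with NPMc_Flt3ITD the highest and Flt3ITD the lowest. The difference between the mutants was 1.42 on the log2 scale (SE 0.33, limma adjusted p = 0.0775, with the replicate block 0.0194), and that of NPMc_Flt3ITD from Mx was 1.02 (SE 0.33, limma adjusted p = 0.231).

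Egln1, the main hydroxylase in most tissues, overlapped between all groups at 4.86 to 9.44 CPM. Per kilobase Egln3 made up 59.0% and 62.1% of the level of both hydroxylases in Mx, 55.7% and 44.2% in Flt3ITD cells and 77.8% and 78% in NPMc_Flt3ITD cells. Vhl had 45.7 and 35.4 CPM in Mx cells, 25.1 and 28.3 CPM in Flt3ITD cells and 35.0 and 33.4 CPM in NPMc_Flt3ITD cells, so that Flt3ITD lay below both other groups, by -0.58 on the log2 scale against Mx (limma adjusted p = 0.165).

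The HIF targets outside glycolysis differed among themselves. Vegfa, an angiogenic growth factor, had 15.7 and 11.9 CPM in Mx cells, 2.82 and 7.35 CPM in Flt3ITD cells and 8.90 and 13.0 CPM in NPMc_Flt3ITD cells. Flt3ITD was the lowest group, with a log2 fold change of -1.38 against Mx (SE 0.44) that passed with the replicate block but not without it (limma adjusted p = 0.105, with the block 0.0323). Ddit4, an inhibitor of mTORC1 induced by hypoxia and other stresses, had 33.6 and 25.3 CPM in Mx cells, 19.4 and 14.1 CPM in Flt3ITD cells and 42.4 and 28.6 CPM in NPMc_Flt3ITD cells. Again Flt3ITD lay below both other groups, by -0.78 on the log2 scale against Mx (limma adjusted p = 0.155, with the block 0.0304), and NPMc_Flt3ITD was 1.03 above Flt3ITD (limma adjusted p = 0.117, with the block 0.0142).

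Ddit4 and Slc2a1 were higher in replicate 1 than in replicate 2 of every group, the same order as the summed immediate early and stress genes. For Slc2a1 the replicates differed little outside Mx, at 28.9 and 27.9 CPM in Flt3ITD cells and 41.3 and 41.2 CPM in NPMc_Flt3ITD cells. In all, 10 of the 36 genes had this replicate order in every group and 9 the opposite order, together 52.8%, against 42.2% of all genes tested. The part of that list in these values was not tested. Bnip3 and Bnip3l, mitophagy receptors, ranged from 35.4 to 44.8 CPM and from 185 to 255 CPM. Ankrd37, a small HIF target, ranged from 2.1 to 4.97 CPM.

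Lists of other genes of the same pathways, outside the 36, gave 94 genes in the table, of which 75 were tested. In Flt3ITD against Mx 3 rose and 3 fell by limma, in NPMc_Flt3ITD against Mx 1 rose, and in NPMc_Flt3ITD against Flt3ITD 3 fell, where 4.55%, 1.17% and 1.18% of all genes passed. The median log2 fold changes over the 75 genes were 0.14, -0.04 and 0.10, beside 0.01, 0.01 and 0.03 over all genes. With the replicate block 13 were higher and 8 lower, 4 and 2, and 6 and 9, where 18.5%, 5.44% and 12% of all genes passed.

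Of the 16 other glycolysis genes tested, Pklr, a pyruvate kinase of liver and red cells, had 4.31 and 4.29 CPM in Mx cells, 31.1 and 34.4 CPM in Flt3ITD cells and 1.72 and 0.0578 CPM in NPMc_Flt3ITD cells. Flt3ITD stood far above both other groups: the log2 fold change was 2.67 against Mx (limma adjusted p = 0.0241), and NPMc_Flt3ITD was -4.31 from Flt3ITD (limma adjusted p = 0.00548). Against Mx, NPMc_Flt3ITD was at -1.64 (limma adjusted p = 0.164, with the replicate block 0.0492). With edgeR on the recovered reads neither passed (adjusted p = 0.117 and 0.0715), and DESeq2 gave 0.175 against Mx. The call against Mx was also lost without Mx replicate 1 (adjusted p = 0.111), Mx replicate 2 (0.109), Flt3ITD replicate 1 (0.111) or Flt3ITD replicate 2 (0.0734), and the call between the mutants without Flt3ITD replicate 1 (0.0561).

 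Minpp1, a phosphatase that acts on inositol phosphates and 2,3-bisphosphoglycerate, had 88.1 and 82.9 CPM in Mx cells, 240 and 227 CPM in Flt3ITD cells and 86.4 and 68.2 CPM in NPMc_Flt3ITD cells. It rose by 1.44 in Flt3ITD (limma adjusted p = 0.00863) and fell by 1.59 from there in NPMc_Flt3ITD (limma adjusted p = 0.00548), with Flt3ITD above both other groups, which overlapped. The rise was lost without Mx replicate 1 (adjusted p = 0.0602), Mx replicate 2 (0.0534) or Flt3ITD replicate 1 (0.0647), and the fall without Flt3ITD replicate 1 (0.0616) or NPMc_Flt3ITD replicate 2 (0.0615).

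Among the 33 other hypoxia response genes tested, the transferrin receptor Tfrc had 62.1 and 54.9 CPM in Mx cells, 185 and 180 CPM in Flt3ITD cells and 65.9 and 89.4 CPM in NPMc_Flt3ITD cells. It rose by 1.63 in Flt3ITD (limma adjusted p = 0.00792) and fell by 1.24 from there in NPMc_Flt3ITD (limma adjusted p = 0.0241). The rise was lost without Mx replicate 1 (adjusted p = 0.0507), Mx replicate 2 (0.0534) or Flt3ITD replicate 1 (0.0595). The fall was lost without Flt3ITD replicate 1 (adjusted p = 0.178), Flt3ITD replicate 2 (0.0752), NPMc_Flt3ITD replicate 1 (0.141) or NPMc_Flt3ITD replicate 2 (0.0622). Tfrc is also 1 of the erythroid markers whose sums are given above, and was highest in the same libraries as Pklr, Minpp1 and Slc16a1. The part of that list in these values was not tested.

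Bhlhe40, a transcriptional repressor induced by hypoxia and other signals, had 86.4 and 68.1 CPM in Mx cells, 8.86 and 20.1 CPM in Flt3ITD cells and 43.7 and 43.3 CPM in NPMc_Flt3ITD cells. The groups did not overlap, and it fell by 2.43 on the log2 scale in Flt3ITD against Mx (limma adjusted p = 0.0127). That call was lost without Mx replicate 1 (adjusted p = 0.0827), Mx replicate 2 (0.0534) or Flt3ITD replicate 1 (0.0553). NPMc_Flt3ITD was 1.62 above Flt3ITD, past the threshold with the replicate block but not without it (limma adjusted p = 0.0614, with the block 0.00679). Wsb1, part of a ubiquitin ligase, had 196 and 222 CPM in Mx cells, 114 and 121 CPM in Flt3ITD cells and 168 and 136 CPM in NPMc_Flt3ITD cells. With Flt3ITD below both other groups, it fell by 0.82 against Mx (limma adjusted p = 0.0382), a call lost with edgeR (adjusted p = 0.0579) and without any 1 of the 6 libraries (adjusted p from 0.0537 to 0.191).

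Cxcr4, the receptor that holds stem cells in the marrow niche, had 12 and 11.7 CPM in Mx cells, 17.6 and 17.1 CPM in Flt3ITD cells and 35.2 and 29.2 CPM in NPMc_Flt3ITD cells. The groups did not overlap, and it rose by 1.36 in NPMc_Flt3ITD against Mx (limma adjusted p = 0.047), a call lost with scaling to library totals (adjusted p = 0.0605) and without any 1 of the 6 libraries (adjusted p from 0.0586 to 0.267). Pdk4, a pyruvate dehydrogenase kinase induced by fasting, was the 1 gene called among the 16 other pyruvate and lactate genes tested. It had 3.94 and 3.30 CPM in Mx cells, was at 0 and 0.412 CPM in Flt3ITD cells, and had 0.935 and 0.231 CPM in NPMc_Flt3ITD cells. Only the Mx libraries reached the 1 CPM of the filter. Pdk4 was thus tested only through the group where it is high, and could pass against Mx only as a fall. With the filter at 5 CPM, or with either Mx library left out, it was not tested. It fell by 1.95 in Flt3ITD against Mx (limma adjusted p = 0.0421), which edgeR did not call (adjusted p = 0.151). With a library at 0 the size of this fall depends on the setting, from -0.73 with a pseudocount of 5 to -3.24 with a pseudocount of 0.25, where the call was lost (adjusted p = 0.0642), and -4.04 with DESeq2. That call was lost without either Flt3ITD library (adjusted p = 0.157 and 0.0694) or either NPMc_Flt3ITD library (0.0681 and 0.0649), all of which share the estimate of the spread. Over the 10 calls of these lists, the threshold was passed in 99 of 157 recomputations with other settings, which were added after the data were seen. The direction was kept in all 157, which says little about robustness. These genes were named only where libraries did not overlap, and several settings leave the fold change as it is.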

How the data were processed

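RNA was measured in 6 LT-HSC libraries made from polyadenylated RNA by SMART-seq, per the labels. The deposited signal values are edgeR-normalized CPM, per the file headers. The submitters' processing notes name TopHat2 2.1.0, HTSeq 0.6.1p1, edgeR 3.20.7, Bowtie2 2.2.4, SAMtools 0.1.18, CASAVA 1.8 and build mm9. The sources used here do not state the annotation, the strand setting or the treatment of reads matching several places. Of 107982 values 100% were whole reads within 0.01. Reads of SMART-seq carry no molecular identifiers.

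Genes with at least 1 CPM in at least 2 libraries (12657 kept, 5340 removed) were fitted with limma 3.58.1 (R 4.3.3, intensity trend) on log2(CPM + 1), all 6 libraries in 1 fit with group as the only term, 3 residual degrees of freedom (8.67 moderated), and Benjamini-Hochberg adjustment over all genes at 0.05. Fold changes on this scale understate those of low genes. On the recovered reads edgeR 4.0.16's quasi-likelihood test called 301 genes in Flt3ITD against Mx, 104 in NPMc_Flt3ITD against Mx and 92 between the mutants, and DESeq2 1.42.0 called 1489, 550 and 1017. The scripts were tested on simulated data.

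Replicate numbers were taken to pair libraries because same-numbered deviations from the group means correlated at 0.259, 0.316 and 0.341 across genes. The labels do not state this pairing, which was read from the values before the fits were compared. Blocked p-values stand where they changed a call. Levels per kilobase divide by the longest well-supported coding transcript of GENCODE M21, which may not be the authors' annotation. The genes and lists were chosen with earlier results of these data known, so no list was tested. Outside the 36 genes, those named were list genes past the threshold with groups that do not overlap. Late erythroid markers were named for their low or zero level. Xist, Pkm and the single LT-HSC and neutrophil markers were chosen after their values were seen.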

Additional observations from a re-analysis of the deposited data

Results flagged for a closer look

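For 4 of the 36 genes the mutant groups lay on opposite sides of Mx, with every Flt3ITD library on 1 side and every NPMc_Flt3ITD library on the other. The share of all genes with this pattern was not counted, so the 4 cannot be set against a background. In Flt3ITD against Mx, 26.6% of all genes were entirely higher and 27.3% entirely lower. In NPMc_Flt3ITD against Mx the shares were 20.4% and 22.1%. Aldoc was below Mx in Flt3ITD and above it in NPMc_Flt3ITD, and the difference between the mutants was 1.77 on the log2 scale (limma adjusted p = 0.00887). Slc16a1 was above Mx in Flt3ITD and below it in NPMc_Flt3ITD, with a difference of -1.34 (limma adjusted p = 0.00905). Ldha had the same order as Slc16a1, with a difference of -0.68 that did not pass (limma adjusted p = 0.151). Egln3 had the same order as Aldoc, with a difference of 1.42 that did not pass (limma adjusted p = 0.0775).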

How the results depend on the processing

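Of 36 genes 3 passed in Flt3ITD against Mx, 1 in NPMc_Flt3ITD against Mx and 2 between the mutants. In that order the counts were 8, 3 and 7 with the replicate block, 5, 2 and 5 with DESeq2 (11.8%, 4.35% and 8.04% of all genes), and 0, 0 and 0 in limma with no filter on low values, where 12, 6 and 6 of them had an unadjusted p under 0.05, as had 18.3%, 10.6% and 14.4% of all genes, and 0, 27 and 0 of all genes passed. In NPMc_Flt3ITD against Mx, 2 genes passed with a pseudocount of 5, with a filter at 5 CPM and with only the 2 groups compared (1.58%, 1.22% and 1.42% of all genes), and 0 with edgeR (6 at an unadjusted p under 0.05, 0.822% of all genes passed). Leaving out 1 library gave 0 to 3, 0 to 1 and 0 to 2 genes in limma. In Flt3ITD against Mx 0 passed without Mx replicate 1, Mx replicate 2 or Flt3ITD replicate 1 (6, 8 and 6 at an unadjusted p under 0.05, with 0, 46 and 4 of all genes passing) and 2, Hk2 and Ldhb, without Flt3ITD replicate 2 (2.01% of all genes). In NPMc_Flt3ITD against Mx 0 passed without any 1 of its 4 libraries (2 to 6 unadjusted, 20 to 47 of all genes passing). Between the mutants 0 passed without Flt3ITD replicate 1 or NPMc_Flt3ITD replicate 2 (4 and 4 unadjusted, 25 and 24 of all genes passing), and 1, Slc16a1, without NPMc_Flt3ITD replicate 1 (54 of all genes). Among the 36 genes the replicate block changed the calls named with it in the text and no others. The 6 calls passed in 66 of 96 recomputations. Their direction was kept in all 96, which says little about robustness. For these genes the libraries of the groups compared did not overlap, and several settings leave the fold change as it is. Scaling to library totals moved the median log2 fold change of all genes to -0.10 in Flt3ITD against Mx and -0.11 in NPMc_Flt3ITD against Mx, and the higher share of all called genes from 46.5% to 28.8% and from 43.9% to 32.8%. The median of the 36 genes ranged from -0.16 to 0.16 over 48 recomputations. Where a call was lost the cause was not tested. With 2 libraries a group, leaving 1 out leaves a lone library assumed to vary like the other groups. Epas1, Slc16a3, Egln1 and Ankrd37 are too low for small differences to be detectable.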
